A study of Mus musculus with 28 samples.

Results

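Libraries labelled *Hdc* KO were compared with libraries labelled WT in the ventral striatum. Every library whose labels gave this tissue and one of these genotypes was taken, which made 5 of the 28 samples of the series: KO libraries 7a and 8a and WT libraries 1a, 2a and 3a. Of 29878 genes listed, 13567 were above 1 CPM, the count of a gene scaled to the size of its library, in at least 2 of these 5 libraries and were tested. The series profiled ventral striatum, dorsal striatum, hypothalamus and motor cortex of untreated mice with the genotypes Hdc wt, Hdc het and Hdc ko at an age of 2 to 3 months. The knockout is constitutive, and the line had been backcrossed onto C57Bl/6. The mice were adult males, as stated for all experiments of the study. Each of the 5 libraries carried its own number, and no label mentioned pooled animals. The 3 heterozygous ventral striatum libraries (4a, 5a and 6a) entered the fit, and their values are given as a description. The question was which transcripts differ in the ventral striatum of mice that lack histidine decarboxylase.

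*Hdc* encodes histidine decarboxylase, the enzyme that makes histamine from histidine. In the brain, histamine neurons have their cell bodies in the tuberomammillary nucleus of the posterior hypothalamus, and their axons reach most of the forebrain, the striatum included. The ventral striatum, with the nucleus accumbens and the olfactory tubercle, is built mostly of spiny projection neurons that carry either D1 or D2 dopamine receptors, and it borders the pallidum, the septum and the piriform cortex.

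Counts on genes were 4560964 in KO library 7a and 3714890 in KO library 8a. The WT libraries held 3536802 (1a), 3938980 (2a) and 3957874 (3a) counts on genes. Library 8a stood apart before any gene was tested. In 8a, 15 genes were above 5 CPM and over 2 times the highest of the other 7 ventral striatum libraries, against 2 in 7a, 2 in 1a, 0 in 2a and 0 in 3a. WT library 1a stood apart in the other direction, with 15 genes under 0.5 times the lowest of the other 7 libraries, against 2 in 7a, 0 in 8a, 1 in 2a and 5 in 3a. Among the 15 genes high in 8a were the fibrillar collagen gene *Col3a1* at 13.3 times and the glutamate transporter gene *Slc17a6* at 2.36 times the next highest library.

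The targeted gene went against its label. *Hdc* (ENSMUSG00000027360, chr2:126593667-126619299, minus strand, GRCm38) was at 11.5 CPM in KO library 7a, 12.9 in 8a, 0.288 in WT library 1a, 1.61 in 2a and 0 in 3a, from 49, 51, 1, 6 and 0 reads. Both KO libraries were above all 3 WT libraries, and the groups did not overlap. The heterozygous libraries lay between them, at 5.29, 5.23 and 5.52 CPM. Reads were counted per gene and not per exon, so the counts cannot show whether the deleted part of the gene was transcribed, and the genotype is taken from the labels. The log2 fold change (libraries labelled KO over WT) was 4.21 ± 0.58 (SE) at an adjusted p of 9.63e-21. The ratio of summed reads was 19.3, with an exact 95% counting interval of 9.05 to 49.3. Such intervals cover counting error only, since reads copied by PCR are not independent molecules. Without 2a, which held 6 of the 7 WT reads, the log2 fold change was 6.22.

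In all, 12 of 13567 genes (0.0884%) passed an adjusted p under 0.05. Of these, 9 were higher (0.0663%) and 3 lower (0.0221%) in the libraries labelled KO. In 8 of the 12, both KO libraries lay outside the WT range: *Hdc*, *Pla2g4e*, *Pcna-ps2*, *Gm9733* and *Tac2* above it, and *Igfbp4*, *Npas4* and *Pcna* below it. The other 4, *Col3a1*, *Pmp22* and *Col1a1* among them, were driven by 8a. The count was 6 without 8a, 173 without 7a, 6 without 1a, 9 without 2a and 10 without 3a. Without 8a, 3 of the 12 genes kept their call, namely *Hdc*, *Pla2g4e* and *Pcna-ps2*, whereas without 7a all 12 did. For a single gene, an exact two-sided permutation test of 2 against 3 libraries can reach no p below 0.2, so the calls rest on the spread estimated over all genes and all 28 libraries. The quasi-likelihood test of edgeR called 4 genes, with *Hdc*, *Pla2g4e* and *Pcna-ps2* among them, and DESeq2 called 5, with *Hdc*, *Pla2g4e*, *Col3a1* and *Igfbp4* among them. With only the 5 libraries in the fit 7 were called, without *Tac2*, *Pcna*, *Col3a1*, *Pmp22* and *Col1a1*, and with the 8 ventral striatum libraries 10 were, without *Pmp22* and *Col1a1*.

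**Figure D1:**
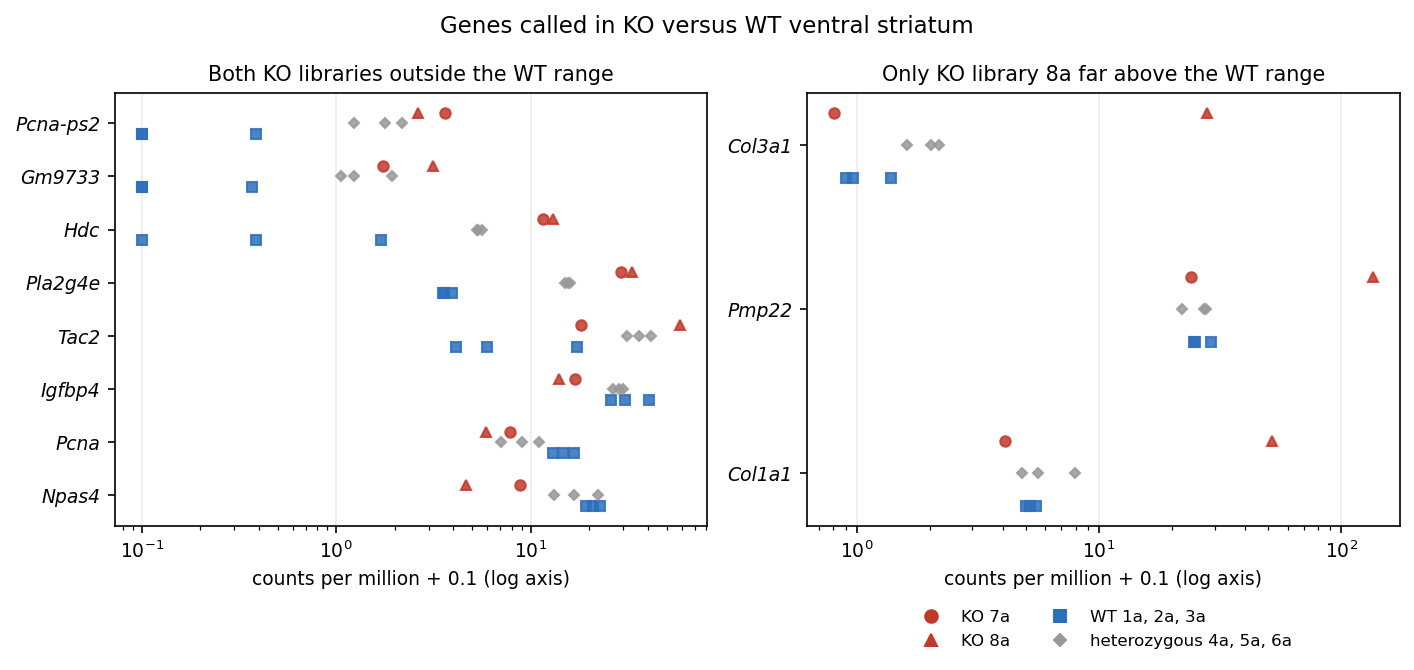
Levels of genes past the adjusted threshold in each ventral striatum library, in CPM plus 0.1 on a log axis, with red symbols for libraries labelled KO, gray for heterozygous and blue for WT. *Pla2g4e* and *Hdc* show separated groups, while *Col3a1*, *Pmp22* and *Col1a1* have 8a alone far above the other libraries.

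The gene with the smallest p was *Pla2g4e* (ENSMUSG00000050211, chr2:120166412-120245335, minus strand), which encodes a cytosolic phospholipase A2 of the calcium-dependent group that forms N-acylphosphatidylethanolamines. Its level was 29.2 CPM in 7a and 33.1 in 8a, against 3.46 in 1a, 3.49 in 2a and 3.84 in 3a. Both KO libraries were several times above every WT library, and the heterozygous libraries lay between, at 15.9, 15.4 and 14.9 CPM. *Pla2g4e* rose by a log2 fold change of 3.10 ± 0.28 (adjusted p 1.48e-31). Summed reads gave a ratio of 8.63, with a counting interval of 6.17 to 12.4. The call held without 8a (3.01, adjusted p 7.81e-21). *Pla2g4e* lies on the chromosome of *Hdc*, at -6.37 Mb from it.

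*Pcna* and a copy of it moved in opposite directions. *Pcna* (ENSMUSG00000027342, chr2:132249162-132253314, minus strand) encodes the sliding clamp of DNA polymerase, and it was at 7.77 CPM in 7a and 5.81 in 8a, against 12.96 in 1a, 16.7 in 2a and 14.6 in 3a. Both KO libraries were below all WT libraries, and the heterozygous libraries were at 8.89, 10.99 and 6.95 CPM. *Pcna* fell by a log2 fold change of -1.11 ± 0.27 (adjusted p 0.0227). This call was lost without 8a (-0.92, adjusted p 0.574), without 2a (-1.01, 0.223) and without 3a (-1.12, 0.0706). *Pcna-ps2* (ENSMUSG00000067608, chr19:9283380-9284160, plus strand), annotated as a processed pseudogene, was at 3.53 CPM in 7a, 2.53 in 8a, 0.288 in 1a and 0 in 2a and 3a, from 15, 10, 1, 0 and 0 reads. It was above the WT range in both KO libraries and also in the heterozygous libraries, at 1.135, 2.09 and 1.68 CPM. *Pcna-ps2* rose at an adjusted p of 1.18e-05, and with a single WT read its ratio of 33.8 had a counting interval of 5.54 to 1390.0. The Wald test of DESeq2 gave it an adjusted p of 0.222.

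The transcript of *Pcna-ps2*, at 781 bases, aligned without a gap to the *Pcna* transcript of 1518 bases, with 6 mismatches and 99.2% identity. Of all 50-base windows, the length of the reads, 31.8% of those of *Pcna* and 63.8% of those of *Pcna-ps2* occurred unchanged in the other transcript. Only uniquely mapping reads were counted, so reads from these shared windows could not be placed and the separate values of both genes are uncertain. Summed over both genes, the level was 11.3 CPM in 7a and 8.34 in 8a, against 13.2 in 1a, 16.7 in 2a and 14.6 in 3a. Both KO libraries were still below the WT range for the sum, which was not tested, and the heterozygous libraries were at 10, 13.1 and 8.63 CPM. A stretch of 120 bases is shown because it holds 3 of the 6 mismatches, the kind of position that lets a read be assigned to one gene. Capitals mark the bases that differ. The *Pcna* stretch lies at chr2:132249778-132249897 (minus strand) and the *Pcna-ps2* stretch at chr19:9283961-9284080 (plus strand), from GENCODE M21 transcripts on GRCm38.
Pcna: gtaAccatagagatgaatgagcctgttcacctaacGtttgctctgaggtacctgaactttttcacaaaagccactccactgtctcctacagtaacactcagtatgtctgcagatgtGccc
Pcna-ps2: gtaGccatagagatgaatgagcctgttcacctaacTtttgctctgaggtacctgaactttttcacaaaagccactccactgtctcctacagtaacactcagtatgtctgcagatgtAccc

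*Gm9733* (ENSMUSG00000078783, chr3:15296551-15332302, minus strand), a protein-coding gene of unassigned function, was at 1.65 CPM in 7a and 3.03 in 8a, against 0, 0.269 and 0 in 1a, 2a and 3a. These values rest on 7 and 12 reads in the KO libraries and 1 read in WT, where a count of 0 allows up to 3 reads a library. *Gm9733* rose at an adjusted p of 0.00627, with a ratio of 25.7 and a counting interval of 4.09 to 1070.0. The adjusted p was 0.346 without 8a, 0.148 without 1a and 0.086 without 3a, so each of these libraries decided the call.

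*Tac2*, which encodes the neuropeptide neurokinin B, was on the list of genes enriched in the ventral striatum. *Tac2* (ENSMUSG00000025400, chr10:127724478-127731768, plus strand) was at 18.1 CPM in 7a, 58.6 in 8a, 4.03 in 1a, 17.2 in 2a and 5.88 in 3a. Both KO libraries were above the WT range, but 7a exceeded 2a by less than the WT libraries differed among themselves. All heterozygous libraries were above the WT range too, at 31.4, 36.1 and 41.7 CPM. *Tac2* rose by a log2 fold change of 2.08 ± 0.46 (adjusted p 0.00627). It no longer passed without 8a (1.01, adjusted p 0.887), without 1a (1.73, 0.209) or without 3a (1.84, 0.0936).

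Of the genes that fell, *Igfbp4* (ENSMUSG00000017493, chr11:99041244-99054392, plus strand) encodes a secreted protein that binds insulin-like growth factors. It was at 16.7 CPM in 7a and 13.9 in 8a, against 40.6 in 1a, 30.6 in 2a and 25.8 in 3a. The KO values were close to each other and below all WT values, while the heterozygous libraries, at 29.9, 26.4 and 28.3 CPM, were within the WT range. *Igfbp4* fell by a log2 fold change of -1.07 ± 0.23 (adjusted p 0.00627), and the call was lost without 8a (-0.94, 0.371) and without 1a (-0.88, 0.209). *Npas4* (ENSMUSG00000045903, chr19:4984355-4990316, minus strand), a transcription factor gene induced by neuronal activity, was at 8.71 CPM in 7a and 4.55 in 8a, against 22.75, 19.1 and 20.7 in 1a, 2a and 3a. The WT libraries lay close together, well above both KO libraries. The heterozygous libraries were at 16.6, 13.1 and 22.1 CPM. *Npas4* fell by a log2 fold change of -1.64 ± 0.38 (adjusted p 0.0227). The adjusted p was 0.657 without 8a, 0.163 without 1a, 0.0572 without 2a and 0.0595 without 3a.

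Among the called genes driven by 1 KO library were a myelin gene and genes of fibrillar collagen. *Pmp22* (ENSMUSG00000018217, chr11:63128982-63159547, plus strand), which encodes a membrane protein of compact myelin, was at 134.5 CPM in 8a and 23.8 in 7a, against 24.5, 24.7 and 28.9 in 1a, 2a and 3a. Here 7a was just below the WT range and 8a far above it. Its log2 fold change of 1.60 ± 0.35 (adjusted p 0.0062) became -0.13 (adjusted p 0.992) without 8a, and its adjusted p was 0.113 without 1a and 0.0749 without 2a.

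The collagen genes showed the same split between the KO libraries. *Col3a1* (ENSMUSG00000026043, chr1:45311538-45349706, plus strand), a fibrillar collagen gene of connective tissue, was at 27.8 CPM in 8a and 0.707 in 7a, against 0.864, 0.806 and 1.28 in 1a, 2a and 3a. *Col1a1* (ENSMUSG00000001506, chr11:94936224-94953042, plus strand), which encodes a chain of type I collagen, was at 51.8 CPM in 8a and 4.004 in 7a, against 4.90, 5.10 and 5.37 in 1a, 2a and 3a. For both genes, 7a lay below every WT library and 8a above. The log2 fold change of *Col3a1* was 3.81 ± 0.82 (adjusted p 0.00479) and became -0.47 (0.992) without 8a, with an adjusted p of 0.113 without 1a and 0.0749 without 2a. That of *Col1a1* was 2.44 ± 0.53 (adjusted p 0.0062) and became -0.35 (0.985) without 8a, with an adjusted p of 0.113 without 1a, 0.0749 without 2a and 0.0514 without 3a. *Col1a2*, the gene of the other type I chain, did not pass, at 24.5 CPM in 8a, 3.53 in 7a and 3.46, 5.10 and 3.33 in 1a, 2a and 3a (adjusted p 0.0952).

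Over all 13567 genes, both KO libraries lay outside the WT range in 2342 (17.3%), above it in 1175 (8.66%) and below it in 1167 (8.6%). The KO libraries lay on opposite sides of the WT range in 1815 genes (13.4%). A gap of at least 1.5-fold between the nearest KO and WT libraries was left in 113 of the 2342, with 45 above and 68 below. Leaving out a WT library narrows the range, and the count was then 3690 without 1a, 3966 without 2a and 4517 without 3a. At an unadjusted p under 0.05 there were 720 genes (5.31%), with 388 higher (2.86%) and 332 lower (2.45%) in the libraries labelled KO. Of the 388 higher genes, 261 had both KO libraries above the WT range, 120 had 1 KO library above it and 7 had the KO libraries on opposite sides. The single library above the range was 8a in 101 of those 120 genes and 7a in 19. Of the 332 lower genes, 285 had both KO libraries below the WT range, 41 had 1 below (8a in 29, 7a in 12) and 6 had both within. The number of genes at this p was 1603 without 7a, 727 without 8a, 552 without 1a, 739 without 2a and 1085 without 3a.

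**Figure D2:**
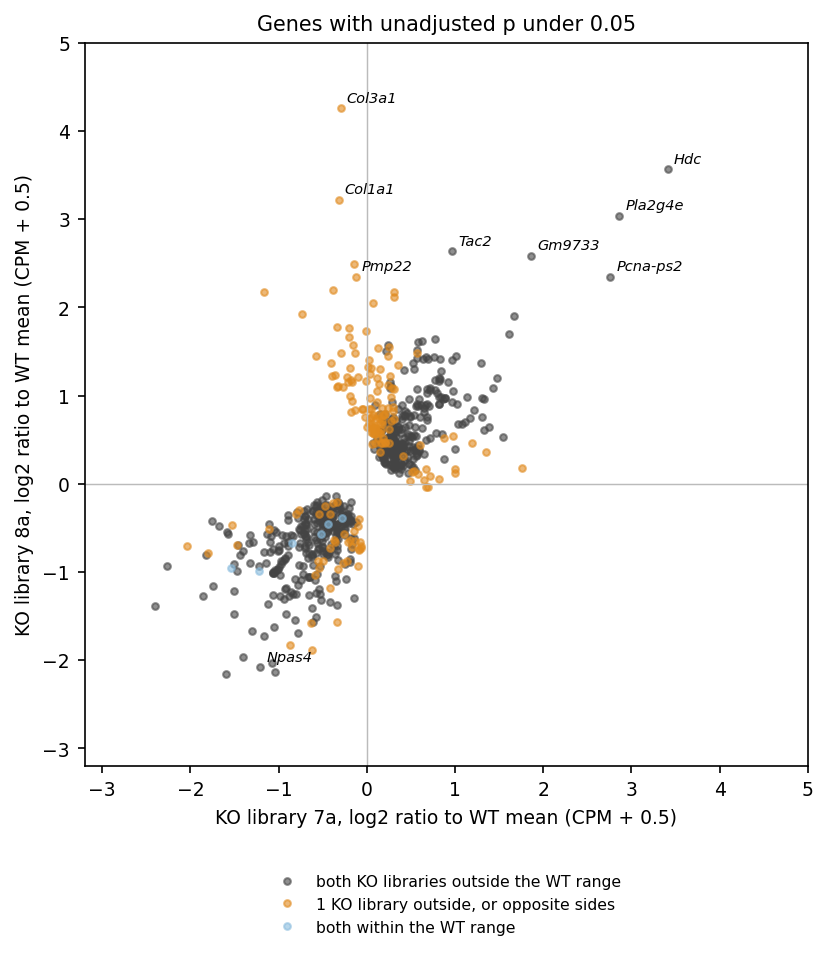
Points are genes with an unadjusted p under 0.05, placed by the log2 ratio of 7a (horizontal) and 8a (vertical) to the WT mean after adding 0.5 CPM. Dark points have both KO libraries outside the WT range (546 genes), and the orange points along the vertical axis, with *Col3a1* and *Col1a1* among the uppermost, are high in 8a alone.

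Among genes that did not pass the adjusted threshold, the smallest p with both KO libraries above the WT range belonged to *Ptprm*, a receptor tyrosine phosphatase gene of cell adhesion. It was at 76.5 CPM in 7a and 77.6 in 8a, against 43.2, 54.5 and 62.9 in 1a, 2a and 3a. The KO libraries were nearly equal, and the log2 fold change was 0.52 ± 0.13 (adjusted p 0.0666, with 0.0685 without 7a, 0.394 without 8a, 0.939 without 1a, 0.195 without 2a and 0.00575 without 3a). *Gabra3*, the gene of a GABA-A receptor subunit, was at 53.0 and 61.4 CPM in 7a and 8a, against 33.1, 43.5 and 41.2 in WT (adjusted p 0.0952). *Timp2*, an inhibitor of matrix metalloproteinases, was at 488 and 521 CPM against 347, 397 and 408.5 (adjusted p 0.154). *Kcnk9*, a leak potassium channel gene, was at 6.83 and 12.6 CPM against 3.74, 5.91 and 4.09 (adjusted p 0.152). In each of these genes the lower KO library was above the highest WT library.

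With both KO libraries below the WT range, *Epor*, the erythropoietin receptor gene, was at 1.65 and 0.506 CPM in 7a and 8a, against 4.61, 4.30 and 2.81 in WT (adjusted p 0.0952). *Timm44*, a gene of mitochondrial protein import, was at 12.7 and 11.9 CPM against 26.2, 18.3 and 17.9 (adjusted p 0.153). These differences also did not pass, and 1a was the highest library for both genes. Genes driven by 1 KO library without passing included *Glra1*, a glycine receptor subunit gene, at 7.84 CPM in 8a, 1.88 in 7a and 0.576, 2.15 and 1.535 in WT (adjusted p 0.0952). Its heterozygous libraries were at 3.78, 5.495 and 7.91 CPM, all above the WT range. *Tle2*, a transcriptional corepressor gene, had 7a alone below the WT range, at 4.004 CPM in 7a, 6.32 in 8a and 10.9, 6.18 and 10.5 in WT (adjusted p 0.695). *Necab2*, a neuronal calcium-binding protein gene, had 8a alone below it, at 74.3 CPM in 8a, 101.5 in 7a and 135, 124 and 87.5 in WT (adjusted p 0.753).

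Genes near the targeted locus were also counted apart. Within 10 Mb of *Hdc*, 190 genes were tested and 3 were called: *Hdc*, *Pla2g4e* and *Pcna*. In this window 31 genes (16.3%) had an unadjusted p under 0.05, 17 higher and 14 lower, against 43 of 891 (4.83%) on the rest of chromosome 2 and 638 of 12387 (5.15%) on other chromosomes. Both KO libraries were outside the WT range in 56 of the 190 (29.5%), against 16.8% and 17.1%. Without 8a, 22 genes of the window (11.6%) were at this p, against 5.36% of all genes, and without 7a 36 genes (18.9%) against 11.8%.

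Both directions were present near *Hdc*. *Wdr76*, at -5.11 Mb, was at 4.95 and 3.79 CPM in 7a and 8a, against 1.44, 1.07 and 2.05 in WT (log2 fold change 1.5, adjusted p 0.243). *Sord*, the sorbitol dehydrogenase gene, at -4.39 Mb, was at 5.42 and 7.08 CPM against 2.59, 2.69 and 3.33 (1.10, adjusted p 0.296). Both were above the WT range in either KO library. *Ivd*, the isovaleryl-CoA dehydrogenase gene of leucine breakdown, at -7.76 Mb, was at 14.6 and 17.7 CPM against 28.2, 22.6 and 23.8 (-0.62, adjusted p 0.152). *Kcnip3*, a calcium-binding gene at 0.903 Mb, was at 31.1 and 29.8 CPM against 49.2, 50.5 and 40.4 (-0.61, adjusted p 0.153). These were below the WT range in both KO libraries, whereas *Disp2*, at -7.84 Mb, was driven by 8a, at 240.7 CPM in 7a and 461.5 in 8a against 166, 232 and 269 in WT (adjusted p 0.344).

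**Figure D3:**
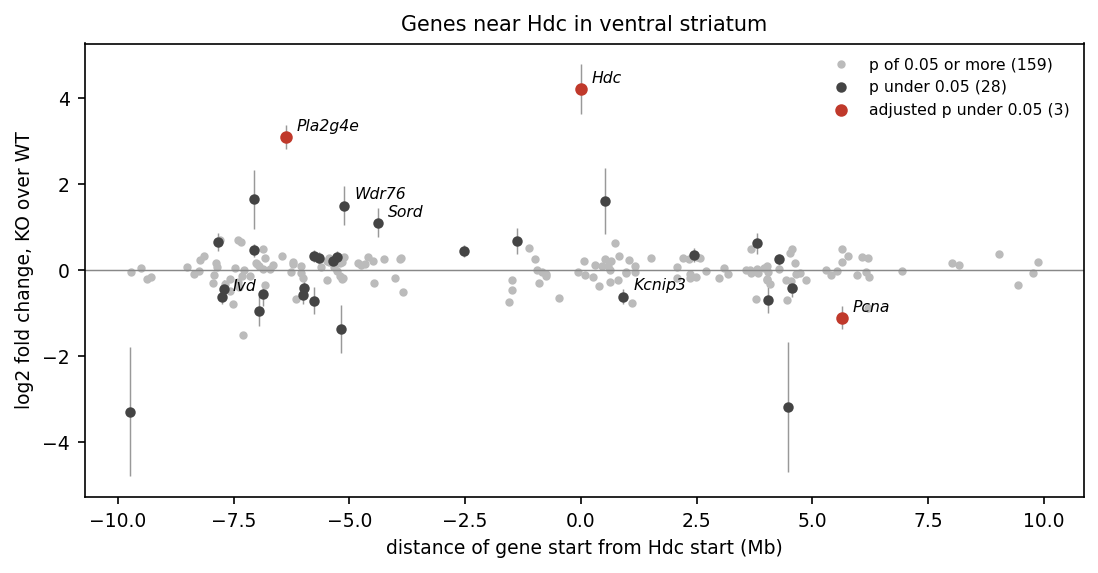
Log2 fold change (libraries labelled KO over WT) of the 190 genes tested within 10 Mb of *Hdc*, against the distance of the gene from *Hdc* in Mb, with genes past the adjusted threshold in red and genes at an unadjusted p under 0.05 in black, both with bars of 1 SE. Genes at that p occur on both sides of *Hdc* and in both directions, 17 higher and 14 lower.

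The tissue label was checked against genes of spiny projection neurons. Per kb of exon, the mean WT level was 635 CPM for *Penk*, 131 for *Ppp1r1b*, 72.7 for *Drd2*, 55.8 for *Adora2a*, 29.4 for *Drd1* and 9.74 for *Tac1*, so all 6 defining markers were present. *Drd1*, the D1 dopamine receptor gene, was at 159 CPM in 7a and 59.9 in 8a, against 109, 122.5 and 88.5 in 1a, 2a and 3a. *Drd2*, the D2 receptor gene, was at 232 and 112 CPM against 207, 200.4 and 148. *Penk*, the proenkephalin gene, was at 1380 and 599 CPM against 1214, 1154 and 747. In all 3 genes 7a was the highest and 8a the lowest of the 5 libraries, and 3a was the lowest WT library.

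In the summed level of each list of spiny neuron genes, 7a was the highest and 8a the lowest of the 5 libraries, but single genes did not all follow this order. Summed over the 17 genes shared by both spiny neuron types, of which *Arpp21* was the most abundant, the level was 8184 CPM in 7a and 4027 in 8a, against 7511, 7308 and 4926 in 1a, 2a and 3a. Library 8a was the lowest of the 5 in 12 of the 17 genes. The share of all genes tested with 8a lowest or highest was not counted, here or below. The KO libraries lay on opposite sides of the WT range in 8, beside 13.4% of all genes tested. The median log2 fold change of the list was -0.13, beside 0.01 over all genes, and it was -0.70 without 7a and 0.23 without 8a. Of the 17 genes, 0 passed in edgeR and 1 was at an unadjusted p under 0.05. The 10 direct pathway genes had a median of 0.04 (-0.48 without 7a, 0.26 without 8a), with sums of 627 and 313 CPM against 480, 498 and 391.6, and 8a was the lowest library in 6 of them. For the 9 indirect pathway genes tested the median was -0.07 (-0.73 without 7a, 0.21 without 8a), with sums of 2150 and 1065 CPM against 1910, 1839 and 1277. Library 8a was the lowest in 6 of these 9 genes and the highest in 1, the only gene of this list at an unadjusted p under 0.05. Of 21 dopamine signalling genes tested, 0 passed in edgeR, 1 was at an unadjusted p under 0.05, and the median was -0.01 (-0.54 without 7a, 0.22 without 8a). In bulk tissue, fewer cells of a type and less RNA per cell cannot be told apart.

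Most genes on a list of neighboring tissue moved the other way in 8a. On the list of pallidal, septal and hypothalamic neurons, 10 of 18 genes were tested, with *Tcf7l2* the most abundant, and the sum was 332 CPM in 8a and 158 in 7a, against 141, 202 and 210 in 1a, 2a and 3a. Library 8a was the highest of the 5 in 7 of the 10 and the lowest in 2. The median log2 fold change was 0.43, and it was 1.05 without 7a, -0.21 without 8a and 0.74 without 2a. *Slc17a6*, the vesicular glutamate transporter gene of subcortical neurons, was at 63.95 CPM in 8a and 7.07 in 7a, against 4.61, 20.95 and 27.1 in WT. *Calb2*, the calretinin gene, which is also on the list of striatal interneurons, was at 51.8 CPM in 8a and 15.3 in 7a, against 15.8, 16.9 and 18.7. Neither passed (adjusted p 0.946 and 0.318). *Six3*, also on the list, went against these, at 27.8 CPM in 8a and 45.45 in 7a, against 44.6, 41.1 and 39.4 in WT. The hypothalamic peptide genes *Avp*, *Oxt*, *Pmch*, *Hcrt*, *Agrp* and *Pomc* and the transcription factor genes *Sim1* and *Prdm12* were below the filter.

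Other lists of neurons at the border showed smaller medians. The 10 piriform and claustroamygdalar genes had a median log2 fold change of 0.245 (0.34 without 7a, -0.01 without 8a). Their sum was highest in 7a, at 988 CPM, and within the WT range in 8a, at 695, against 767, 665 and 744 in WT. The most abundant of them, *Zbtb20*, a transcription factor gene, was at 731.5 CPM in 7a and 441 in 8a, against 502, 410 and 529 in WT. *Nr2f2*, another transcription factor gene, went the other way, at 40.7 CPM in 8a and 6.36 in 7a, against 3.17, 15.85 and 6.39 in WT (adjusted p 0.435). The 10 cortical excitatory genes tested had a median of 0.07 (0.14 without 7a, -0.21 without 8a), with sums of 353 CPM in 7a and 458.5 in 8a, against 376, 408.5 and 356 in WT. Of 14 striatal interneuron genes tested, 7 were higher and 7 lower, with a median of 0.05 (0.42 without 7a and -0.18 without 8a). At an unadjusted p under 0.05, *Calb2* and *Nos1* were higher and *Npy* was lower, and none passed. *Nos1*, the neuronal nitric oxide synthase gene and the most abundant of the list, was at 119 CPM in 7a and 175 in 8a, against 96.5, 136 and 104 in WT (adjusted p 0.886). *Npy*, a neuropeptide gene of one interneuron type, had both KO libraries below the WT range, at 85.02 and 67.7 CPM against 109.7, 96.7 and 97.5 (adjusted p 0.842). Whether the amount of bordering tissue in 8a has a part in the called genes was not tested.

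The 12 genes of meningeal fibroblasts, with *Igf2* the most abundant at a WT mean of 28.8 CPM, summed to 162 CPM in 8a and 55.1 in 7a, against 48.7, 80.8 and 65.0 in WT. *Col1a1* and *Col3a1* were the 2 called members, the median log2 fold change was 0.19, and it was 0.15 without 7a and -0.23 without 8a. *Igf2* itself was at 26.1 CPM in 7a and 27.8 in 8a, against 23.3, 35.2 and 27.9 in WT, so the most abundant gene of this list was within the WT range in both KO libraries. The part of meningeal cells in the values of *Pmp22* and the collagen genes was not tested.

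**Figure D4:**
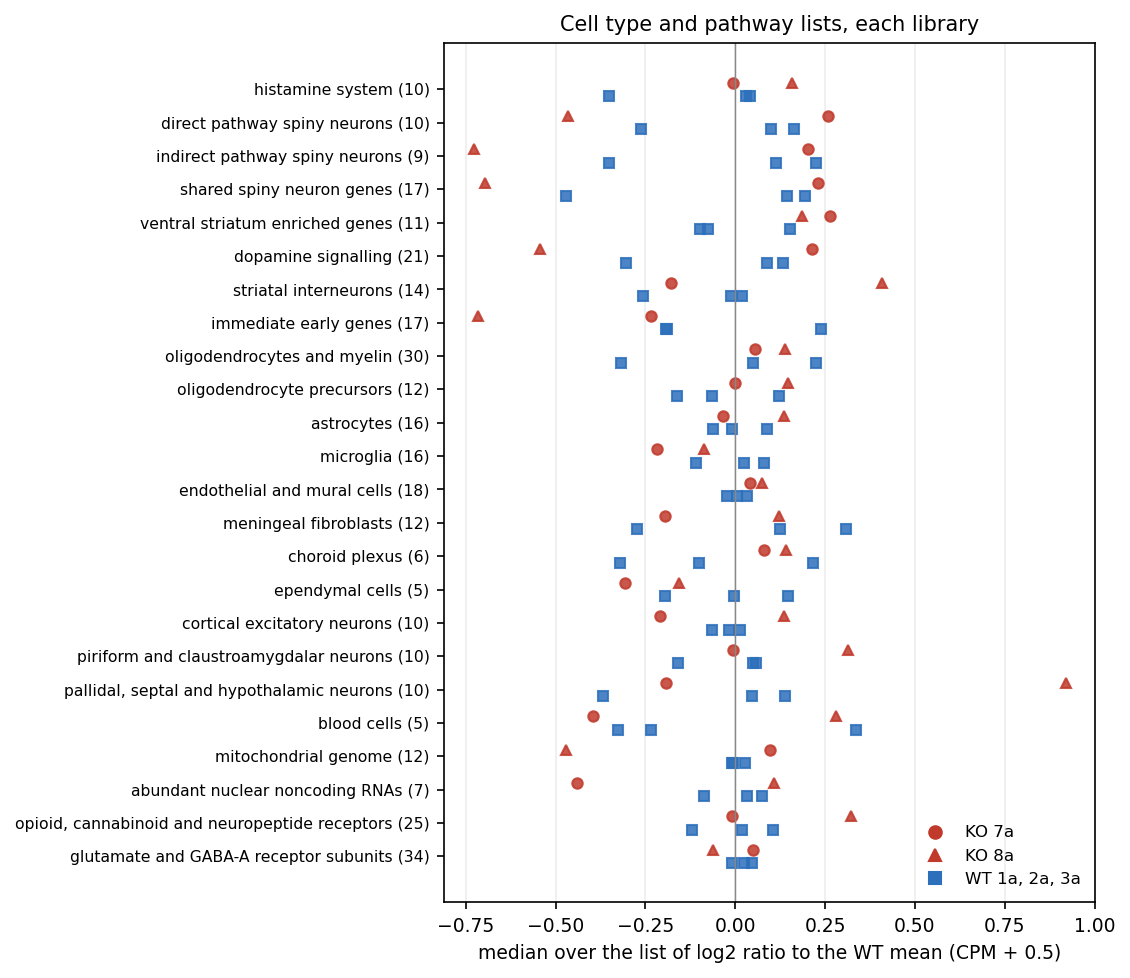
For each gene list (number of genes tested in brackets), the median over its genes of the log2 ratio of a library to the WT mean, after adding 0.5 CPM, for KO libraries 7a and 8a and the 3 WT libraries. The 3 lists of spiny neuron genes have 7a on the right and 8a on the left, and the pallidal, septal and hypothalamic list has 8a at 0.92.

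Of 12 ventral striatum enriched genes, 11 were tested and 9 were higher in the libraries labelled KO, with a median log2 fold change of 0.33 (0.19 without 7a, 0.27 without 8a, 0.17 without 2a). *Tac2* was the only called member in the fit of all libraries, and both KO libraries were above the WT range in 4 of 11 genes, beside 8.66% of all genes tested. *Stard5*, a lipid transfer gene, was at 18.4 CPM in 7a and 8.85 in 8a, against 7.49, 3.22 and 7.16 in WT (log2 fold change 1.19, adjusted p 0.435). *Peg10*, the most abundant member, went the other way (log2 fold change -0.39). It was at 310 CPM in 7a and 239 in 8a, against 331, 249 and 502 in WT. Summed over the list, the level was 1330 CPM in 7a and 1285 in 8a, against 1172, 1046 and 1474 in WT. Both sums of the KO libraries were within the WT range.

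Immediate early genes, which neurons switch on within minutes of activity, were lower on average. Of 17 tested, 14 had a negative and 3 a positive log2 fold change, and the median was -0.46, beside 0.01 over all genes. *Npas4* was the 1 called member, and both KO libraries were below the WT range in 6 genes, beside 8.6% of all genes tested. *Arc*, whose product acts at synapses, was at 20.0 CPM in 7a and 14.9 in 8a, against 21.3, 48.3 and 25.1 in 1a, 2a and 3a (adjusted p 0.525). *Fos* was at 1.88 and 1.52 CPM against 2.88, 8.06 and 3.07 (adjusted p 0.753), and *Btg2*, an antiproliferative gene, at 1.41 and 1.77 CPM against 4.61, 4.30 and 2.30 (adjusted p 0.886). For *Arc* and *Fos*, 2a was far above the other WT libraries, and for *Arc* 7a was close to 1a.

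The most abundant member, *Egr1*, did not separate the groups, at 276 CPM in 7a and 143 in 8a, against 215, 397 and 211 in WT. Summed over the 17 genes, the level was 520.0 CPM in 7a and 327 in 8a, against 462, 746 and 459 in WT. The heterozygous libraries were at 693, 719 and 527 CPM. The median log2 ratio to the WT mean, after adding 0.5 CPM, was -0.234 in 7a and -0.716 in 8a. For the genes shared by both spiny neuron types it was 0.23 in 7a and -0.697 in 8a. Library 8a was the lowest of the 5 in 12 of the 17 immediate early genes. Without 7a the median log2 fold change of these genes was -0.73, without 8a -0.24 and without 2a -0.25.

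**Figure D5:**
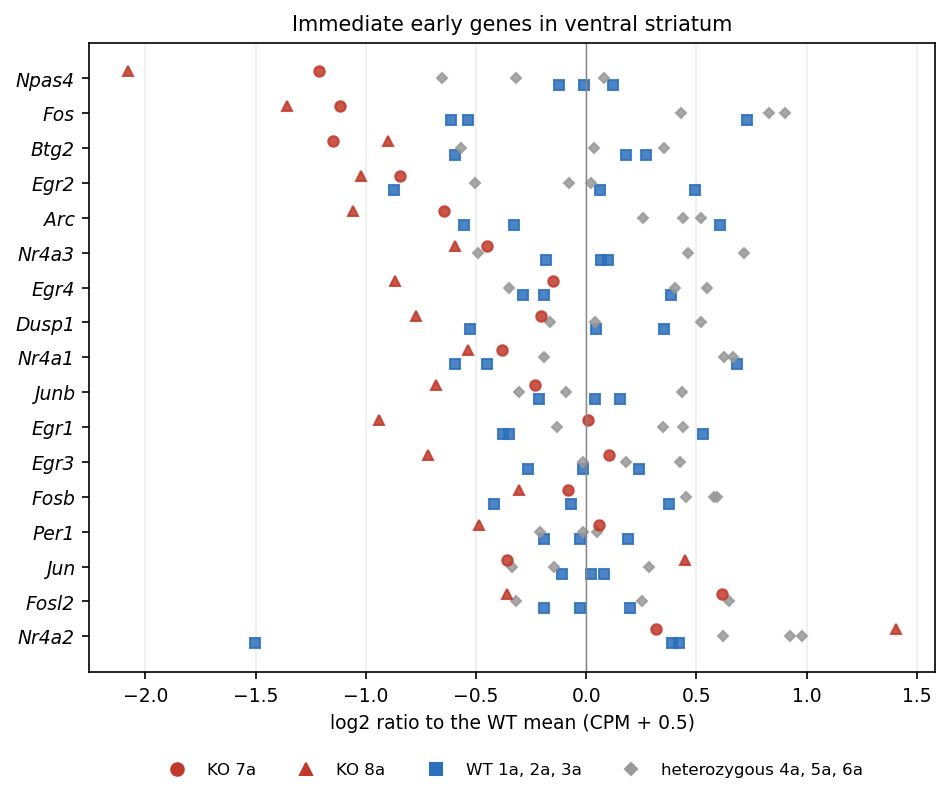
Log2 ratio of each ventral striatum library to the WT mean, after adding 0.5 CPM, for the 17 immediate early genes tested. Both KO libraries are left of every WT library for *Npas4*, *Fos*, *Btg2*, *Arc*, *Nr4a3* and *Junb*, and the heterozygous libraries, in gray, lie mostly among or right of the WT libraries.

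At an unadjusted p under 0.05, *Npas4*, *Fos*, *Btg2* and *Arc* had both KO libraries below the WT range, and the promoters of the first 3, which had an entry, are shown. Each is the 250 bases upstream of the start, from RefSeq on GRCm38.p6: *Npas4* at chr19:4989972-4990221 (minus strand), *Fos* at chr12:85473640-85473889 (plus strand) and *Btg2* at chr1:134079156-134079405 (minus strand). Capitals mark matches of the letters TGACG, the core of a cAMP response element, or its reverse complement, and the palindrome TGACGTCA where they overlap.
Npas4: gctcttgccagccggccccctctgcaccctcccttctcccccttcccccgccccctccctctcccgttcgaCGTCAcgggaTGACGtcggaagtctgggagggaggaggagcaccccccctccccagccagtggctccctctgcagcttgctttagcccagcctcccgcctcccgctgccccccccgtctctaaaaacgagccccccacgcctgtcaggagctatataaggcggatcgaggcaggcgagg
Fos: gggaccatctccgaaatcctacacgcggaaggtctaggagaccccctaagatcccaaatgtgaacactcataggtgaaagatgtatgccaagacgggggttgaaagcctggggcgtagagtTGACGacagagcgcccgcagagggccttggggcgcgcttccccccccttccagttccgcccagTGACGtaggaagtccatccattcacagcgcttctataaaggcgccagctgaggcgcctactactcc
Btg2: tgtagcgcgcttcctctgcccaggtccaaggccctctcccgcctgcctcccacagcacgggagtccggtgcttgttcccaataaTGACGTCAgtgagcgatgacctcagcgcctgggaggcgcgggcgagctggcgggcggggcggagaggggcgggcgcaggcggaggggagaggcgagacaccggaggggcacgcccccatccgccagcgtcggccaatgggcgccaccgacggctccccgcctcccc

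On both strands, TGACG occurred in 5836 of 32851 promoter windows of this length (17.8%), and in 15 of the 19 windows of immediate early genes (78.9%). By gene, it occurred in 5347 of 27025 genes and in 12 of the 14 immediate early genes with an entry. It occurred in all 5 genes with an entry whose KO libraries were both below the WT range: *Btg2*, *Fos*, *Junb*, *Npas4* and *Nr4a3*. The longer TGACGTCA, which contains TGACG, occurred in 508 windows (1.55%), and among the 14 genes in *Btg2* and *Dusp1*. A match describes letters in a window and shows no binding.

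Genes of oligodendrocytes and myelin, the cells that the study followed in the dorsal striatum, did not pass the test in the ventral striatum. All 30 listed genes were tested, 0 passed in edgeR and 0 were at an unadjusted p under 0.05. Both KO libraries were within the WT range in 20, beside 3707 of all 13567 genes tested. The log2 fold change was positive in 23 genes and negative in 7. In 3 genes both KO libraries were above the WT range, beside 8.66% of all genes, in 7 genes 1 was above it, and in 0 genes was either below it. The median log2 fold change was 0.13, beside 0.01 over all genes, and 0.14 without 7a, 0.06 without 8a and -0.01 without 2a. *Mbp*, the myelin basic protein gene, was at 1800 CPM in 7a and 1764 in 8a, against 1714, 1212 and 1928 in WT. Its KO values lay within the WT range, and 2a was the lowest library. The 12 genes of oligodendrocyte precursors had a median of 0.06 and 0 called.

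Glial, vascular and lining cells gave medians between -0.26 and 0.28, with 0 called. These medians were 0.09 for 16 astrocyte genes (0.14 without 7a, -0.03 without 8a), -0.10 for 16 microglia genes (-0.09 without 7a, -0.22 without 8a) and 0.09 for 18 endothelial and mural genes. Microglia genes were lower in 13 of 16, with both KO libraries below the WT range in 3, beside 8.6% of all genes. Of the choroid plexus genes 6 of 12 were tested, with a median of 0.28, and of the ependymal genes 5 of 12, with a median of -0.26. Blood cell genes had a median of -0.11 over 5 tested (0.32 without 7a, -0.44 without 8a).

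Genes of the mitochondrial genome had their lowest sum in library 8a. Their sum was 442100 CPM in 7a and 320800 in 8a, against 422000, 437300 and 410000 in WT. Heterozygous libraries 4a, 5a and 6a were at 343300, 414600 and 370800 CPM, so 4a and 6a were below the WT range too. Library 8a was the lowest of the 5 in all 12 genes tested. The KO libraries lay on opposite sides of the WT range in 8, beside 13.4% of all genes tested. The median log2 fold change was -0.16, and it was -0.47 without 7a and 0.10 without 8a. Among 7 nuclear noncoding RNAs tested, with a median of 0.05 (0.11 without 7a, -0.44 without 8a), *Malat1* was at 1394 CPM in 7a and 1090 in 8a, against 2217, 1990 and 1463 in WT (adjusted p 0.435). *Meg3* was at 34.4 and 38.7 CPM against 66.2, 44.6 and 57.3 (adjusted p 0.646). Both were below the WT range in either KO library, and so were most heterozygous libraries, at 1584, 959 and 1420 CPM for *Malat1* and 31.4, 22.8 and 37.2 for *Meg3*.

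Receptors were described in 3 lists. In the histamine system, *Hdc* was the only gene of 10 called in edgeR, and the median log2 fold change was 0.06. *Hrh3*, the gene of the H3 histamine receptor and the most abundant of the list, was at 95.6 CPM in 7a and 67.2 in 8a, against 94.7, 108 and 70.3 in WT. Of 25 opioid, cannabinoid and neuropeptide receptor genes tested, 0 passed, with a median of 0.17 (0.38 without 7a, -0.03 without 8a). At an unadjusted p under 0.05, 3 were higher, beside 2.86% of all genes tested. *Glp1r*, the receptor gene of glucagon-like peptide, was one of these, at 2.12 and 3.03 CPM against 0.288, 1.07 and 1.02 (adjusted p 0.753). Library 8a was the highest of the 5 in 12 of the 25. Of 34 genes of glutamate and GABA-A receptor subunits, 0 passed, with a median of 0.07. At that p, 3 were higher, *Gabra3* among them, beside 2.86% of all genes tested.

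Whether the effect of the KO label differed from that in other regions was tested directly, on the same 13567 genes. These tests share the ventral striatum libraries with the comparison above. Between ventral and dorsal striatum, 1 gene (0.00737%) differed. The count was 6 without 7a, 2 without 8a, 1 without 2a and 0 without 1a or without 3a. *Pla2g4e* had a difference of -0.18 (adjusted p 1.00) between these regions, with dorsal striatum means of 27.7 CPM in KO and 2.82 in WT.

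Between ventral striatum and hypothalamus, 15 genes (0.111%) differed, 3 with a larger and 12 with a smaller log2 fold change in the ventral striatum. *Hdc* led these, with a difference of 4.61 ± 0.62 (adjusted p 3.3e-18). In the hypothalamus, where the histamine neurons lie, its mean was 13 CPM in KO and 17.1 in WT, against 12.2 and 0.633 in the ventral striatum. In the dorsal striatum the mean of *Hdc* was 8.70 CPM in KO and 0.450 in WT, so it was higher in KO there too. *Pcna-ps2* had means of 2.79 CPM in KO and 0 in WT in the dorsal striatum, and 2.82 and 0.129 in the hypothalamus. Those of *Gm9733* were 1.58 and 0 in the dorsal striatum, and 0.975 and 0 in the hypothalamus. *Igfbp4*, at 9.29 CPM in KO and 5.29 in WT in the hypothalamus, differed by -1.88 (adjusted p 9.36e-04), and *Npas4*, at 7.01 and 4.59 CPM there, by -2.25 (adjusted p 0.0333). The difference of *Npas4* did not pass without 8a (-1.84, adjusted p 0.546), without 1a (adjusted p 0.122), without 2a (0.0634), with library size alone (0.0517) or with only the KO and WT libraries of these regions (0.101). In the quasi-likelihood test *Hdc* was the only gene of the 15 that passed. For most of the 15 the difference lay mostly in the hypothalamus, with higher means in KO there and no call in the ventral striatum. These were *Kcnh3*, *Egr3*, *Npy*, *Chrm1*, *Ankrd33b*, *Vipr1*, *Kcnj4*, *Nrgn*, *Itpka* and *Lamp5*. *Kcnh3*, a potassium channel gene, was at 6.02 CPM in KO and 0.863 in WT in the hypothalamus, and at 25.2 and 36.1 CPM in the ventral striatum. The count was 99 without 7a, 5 without 8a, 5 without 1a, 9 without 2a and 25 without 3a.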

How the data were processed

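RNA-seq libraries of total RNA, amplified with a kit for low input and sequenced as single-end 50-base reads, were measured in 28 samples. According to the submitters' processing notes, reads were trimmed with Trimmomatic 0.32, cleared of rRNA reads with Bowtie2 2.2.3, aligned to GRCm38 with STAR 2.3.1z8, handled with SAMtools 0.1.19 and counted with HTSeq 0.6.1p1. The deposited values were raw counts per gene of uniquely mapping reads on exons, made by the authors in union mode with no normalization or filter on low counts. Reads that named no gene (no feature, ambiguous, not aligned or not unique) and a GFP entry were left out, and 46.6 to 51.1% of the tallied reads of the 5 libraries lay on genes. Those counts, 3536802 to 4560964 a library, set the depth. GENCODE M21 on GRCm38 named 28842 of the 29878 genes.

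Genes with over 1 CPM in 2 or more of the 5 libraries entered a test by glmFit and glmLRT (edgeR 4.0.16, R 4.3.3, TMM factors), in a model of all 28 libraries with 12 means, 1 per genotype and tissue. Adjusted p-values are Benjamini-Hochberg over all genes tested, and genes under 0.05 are called. CPM values are scaled by TMM. The WT range runs from the lowest to the highest WT library, and a tie is not outside it. The differences between regions are contrasts of the same model. Alternatives were the quasi-likelihood test of edgeR, DESeq2 1.42.0, other scalings, filters and sets of samples, a block for the library number, and leaving out each of the 5 libraries. The pipeline was tested on simulated data, where glmLRT called unchanged genes above the nominal share, and more of them than the quasi-likelihood test or DESeq2 did. Counting intervals are exact binomial intervals at 95%.

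Named genes were *Hdc*; all called genes; of the others, those with the smallest p in each direction, apart for both and for 1 KO library outside the WT range; list members that were most abundant, most changed or at an unadjusted p under 0.05; genes at that p within 10 Mb of *Hdc*; genes leading the differences between regions; and the tissue markers. Some genes that this rule names are not reported or drawn here, and counts include them. Other names in lists of matches or markers were chosen after their values were seen. The members and the 24 gene lists were chosen with earlier results of these data known, so lists are described by counts and medians. Promoters are from RefSeq (GRCm38.p6) and transcripts from GENCODE M21.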

Additional observations from a re-analysis of the deposited data

Results flagged for a closer look

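Between ventral striatum and hypothalamus, the effect of the KO label (log2 fold change over WT) differed in the test of the difference itself. It was larger in the ventral striatum for *Hdc* (by 4.61) and *Cbln2* (1.86). It was smaller in the ventral striatum for *Kcnh3* (-3.30), *Egr3* (-3.15), *Igfbp4* (-1.88), *Npy* (-1.24), *Chrm1* (-1.58), *Ankrd33b* (-2.38), *Vipr1* (-3.33), *Kcnj4* (-1.97), *Nrgn* (-2.17), *Itpka* (-1.91), *Lamp5* (-1.62) and *Npas4* (-2.25). Of these genes with a smaller effect, only *Igfbp4* and *Npas4* were called between KO and WT within the ventral striatum.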

How the results depend on the processing

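The 12 genes called between libraries labelled KO and WT became 4 with the quasi-likelihood test, 5 with DESeq2, 7 with only the 5 libraries, and 6 to 173 with 1 of these 5 left out. Leaving out a KO library assumes that the remaining one varies like the other groups. *Hdc* and *Pla2g4e* were called in 14 of 14 alternatives, and *Pcna-ps2* in 12 of 13. The 2342 genes with both KO libraries outside the WT range became 113 with a gap of at least 1.5-fold and 3690 to 4517 with a WT library left out; leaving out a KO library gives no value.

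The 1 gene that differed between ventral and dorsal striatum became 0 with the quasi-likelihood test (500 at an unadjusted p under 0.05), 4 with library size alone, 0 with a block for the library number, and 0 to 6 with 1 of the 5 ventral striatum libraries left out. With only the KO and WT libraries of both regions the count was 1, but the gene was *Cfap65* (named after its values were seen). The 15 genes that differed from the hypothalamus became 1 with the quasi-likelihood test, 8 with library size alone, 6 with only the KO and WT libraries of both regions, and 5 to 99 with 1 of the same 5 left out; the block gave 12, of which 9 were among the 15. No library of the other regions was left out. Library size alone moved the median over all genes to -0.236 and 0.119 in these differences. Libraries that share a number were hardly correlated after removal of group means (0.0185 to 0.102 with the dorsal striatum, -0.0584 to 0.0759 with the hypothalamus), so the numbers do not show pairing.

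With 1 of the 5 libraries left out, these log2 fold changes changed sign, from lowest to highest: *Col3a1* -0.47 to 4.77, *Pmp22* -0.13 to 2.37, *Col1a1* -0.35 to 3.33, *Col1a2* -0.16 to 2.62, *Calb2* -0.16 to 1.59, *Nr2f2* -0.41 to 2.28, *Zbtb20* -0.12 to 0.61, *Slc17a6* -1.31 to 1.86, *Egr1* -0.942 to 0.013, *Drd1* -0.83 to 0.58, *Drd2* -0.73 to 0.33, *Penk* -0.79 to 0.41, *Ppp1r1b* -0.849 to 0.0829, *Tac1* -0.62 to 0.88, *Adora2a* -0.99 to 0.11, *Mbp* -0.0312 to 0.284, *Igf2* -0.225 to 0.0743 and *Hrh3* -0.434 to 0.0775. No other alternative reversed a named gene. The cause was not tested. With 2 KO and 3 WT libraries of 3536802 to 4560964 counts, genes near 1 CPM rest on a few reads each.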
